A study of Mus musculus with 12 samples.

Results

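The Csf1 receptor, its ligands and the myeloid transcription factors that work beside it were followed in mouse cortex as 5 genes: Csf1r, Csf1, Il34, Spi1 and Irf8. For each symbol, the row annotated with that symbol alone was taken, and 4 of the 5 had 1 such row (Csf1r, TC1800000625.mm.1; Csf1, TC0300002718.mm.1; Il34, TC0800002925.mm.1; Irf8, TC0800001451.mm.1). Spi1 had none. Its row, TC0200001368.mm.1, carries both Spi1 and Sfpi1, and RefSeq lists Sfpi1 as a synonym of Spi1 alone, so it is described as the Spi1 row and is not counted among the 4. The 4 genes stand among 30184 genes on the array, of which 12566 passed the study's minimum log2 intensity of about 6.8 on at least 1 array and were tested. Csf1r, Csf1 and Il34 passed that filter. Irf8 and the Spi1 row lay below it on every array, and for them values are given without a call.

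Transcripts were measured on Clariom D arrays, 1 array per sample, in cortex of non-transgenic (Non) FVB/NJ mice and of rTg4510 (Tg) mice. Tg mice carry a Camk2a-tTA and a tetO-MAPT*P301L transgene on the FVB/NJ background: the Camk2a promoter drives the tTA activator in forebrain neurons, and tTA switches on human mutant tau there. Microglia, the cells that express Csf1r, are not among the cells in which that promoter is active. Mice took normal feed (Veh) or feed with 200 ppm doxycycline (Dox), which shuts tTA off, for 35 days from an age of 3.5 months. Per the labels, human tau stood at about 13 times endogenous mouse tau in Tg + Veh and at about 5 to 8 times in Tg + Dox, so human tau was lowered by doxycycline but still present. The comparisons use 11 arrays, namely Non + Veh (n = 3, 2 female), Non + Dox (n = 2, both male), Tg + Veh (n = 3, 1 female) and Tg + Dox (n = 3, 2 female). One more Tg + Veh array, replicate 4 (female), failed the quality control of the study and is given beside the others. The number of arrays limits the precision.

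Csf1r is a receptor tyrosine kinase of microglia and macrophages, and microglia in the adult brain die when it is blocked. It has 2 ligands that do not resemble each other in sequence: Csf1, which glial cells make, and Il34, which in cortex comes mainly from neurons. Spi1 encodes PU.1, an ETS factor that sets up the enhancers of macrophages and microglia and drives Csf1r itself. Irf8 is an interferon regulatory factor that binds composite DNA elements together with PU.1 and keeps microglia in their mature state.

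Labels were checked on genes at the transgene insertion sites. Fgf14, which the tau transgene interrupts, followed genotype on all 12 arrays, at 10.85 to 11.34 on Tg arrays and 12.01 to 12.29 on Non arrays. Esyt2, Ptprn2 and Wdr60, at the tTA site, did not. On Non + Veh 3 and Non + Dox 2 Esyt2 lay at 9.60 and 9.61, beside 9.45 to 9.74 on the Tg arrays, and on the other Non arrays it lay at 10.86 to 11.23. Both mice are labelled non-transgenic, and whether they carried the tTA transgene without the tau transgene was not tested. Csf1r was highest among the Non arrays on those same 2 arrays, and the changes of Csf1r and Csf1 that moved most are therefore also given without both.

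The receptor rose in Tg + Veh cortex. The log2 intensity of Csf1r was 8.78, 8.87 and 9.19 on the Non + Veh arrays and 10.85, 10.14 and 10.06 on the Tg + Veh arrays. Every Tg + Veh array lay above every Non + Veh array, and Tg + Veh 1 stood apart at the top of its group. The difference of the means, 10.35 ± 0.437 (SD, n = 3) against 8.95 ± 0.214 (SD, n = 3), was 1.40 on the log2 scale, a 2.65-fold rise (standard error 0.245, 95% confidence interval 0.849 to 1.96, adjusted p = 0.0254, limma). Of all genes tested, 1.86% were called higher in this comparison and 0.135% lower. In whole tissue, more cells of a type and more RNA per cell cannot be told apart. By sex, the males were at 8.87 in Non + Veh and 10.85 and 10.14 in Tg + Veh, and the females at 8.78 and 9.19 against 10.06. In each sex 1 side was thus a single array, and the female Tg + Veh 4, not used, was at 9.36. With sex as a term the change was 1.41 and was not called (adjusted p = 0.0502, limma).

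The call of Csf1r rested on single arrays. It was lost at similar sizes without Non + Veh 1 (log2 change 1.32, adjusted p = 0.110), Non + Veh 2 (1.36, adjusted p = 0.103), Tg + Veh 1 (1.15, adjusted p = 0.0588) or Tg + Veh 2 (1.51, adjusted p = 0.0614). Without both Non arrays that had low Esyt2 the change was larger, 1.52, and the adjusted p was 0.0610. With Tg + Veh 4, at 9.36, it was 1.16 and the adjusted p was 0.171.

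On doxycycline, Csf1r lay between the Tg + Veh and the Non + Veh levels. The Tg + Dox arrays were at 9.25, 9.45 and 9.85, a mean of 9.52 ± 0.306 (SD, n = 3). All 3 were below all 3 Tg + Veh arrays used and above all 3 Non + Veh arrays, although replicate 4 of Tg + Veh fell among them. The log2 change of Tg + Dox over Tg + Veh was −0.84 (95% confidence interval −1.39 to −0.281, adjusted p = 0.156), and that of Tg + Dox over Non + Veh was 0.57 (95% confidence interval 0.0139 to 1.12, adjusted p = 0.525). Neither was called. Against the Non + Dox arrays, at 8.73 and 9.25, Tg + Dox arrays were higher by 0.53 (adjusted p = 0.85), with the lowest Tg + Dox array and the highest Non + Dox array less than 0.01 apart. This difference turned on the 2 Non + Dox arrays, as it was 0.27 without Non + Dox 1 and 0.79 without Non + Dox 2. Without both Non arrays that had low Esyt2, Tg + Dox was higher than Non + Dox by 0.79 (adjusted p = 0.555) and than Non + Veh by 0.69 (adjusted p = 0.498). Doxycycline in Non mice moved Csf1r by 0.04 (95% confidence interval −0.582 to 0.657, adjusted p = 0.997).

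**Figure D1:**
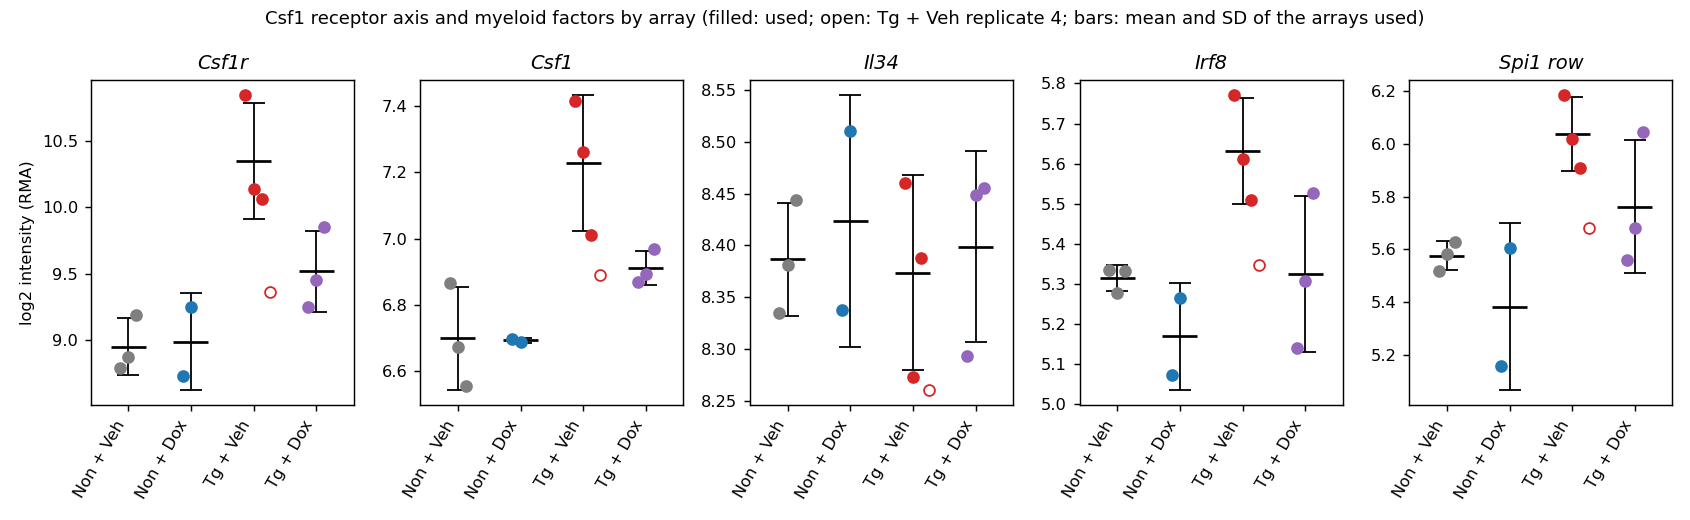
Log2 intensity (RMA) of Csf1r, Csf1, Il34, Irf8 and the Spi1 row on each array, by group. Filled points are the 11 arrays used, the open point is Tg + Veh replicate 4, and bars give the mean and SD. Csf1r, Csf1, Irf8 and the Spi1 row have all 3 filled Tg + Veh points above all Non + Veh points, and Il34 has not. Each panel has its own scale that does not start at 0.

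Csf1, the ligand made by glia, also rose in Tg + Veh. The Non + Veh arrays were at 6.87, 6.67 and 6.56 and the Tg + Veh arrays at 7.42, 7.26 and 7.01, with no overlap. The row was above the minimum on 1 Non + Veh array, on 0 Non + Dox arrays and on all 6 Tg arrays used. The change was 0.53, a 1.44-fold rise (standard error 0.106, 95% confidence interval 0.291 to 0.770, adjusted p = 0.0406, limma). Dropping any 1 array other than Tg + Veh 3 took the call away (adjusted p from 0.0573 to 0.150), and without Tg + Veh 3 the change was 0.64 (adjusted p = 0.0168). Without both Non arrays that had low Esyt2 it was 0.46 (adjusted p = 0.150), and with Tg + Veh 4, at 6.89, it was 0.45 (adjusted p = 0.174).

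The Tg + Dox arrays of Csf1 lay close together, at 6.87, 6.89 and 6.97. They were all lower than the 3 Tg + Veh arrays, by 0.32 on average (95% confidence interval −0.558 to −0.0789, adjusted p = 0.198), and all higher than the Non + Veh arrays, by 0.21 (adjusted p = 0.569), the lowest of them by less than 0.01. Without both Non arrays that had low Esyt2 the latter was 0.14 (adjusted p = 0.745). The Non + Dox arrays were at 6.70 and 6.69. The difference from them was 0.22 (adjusted p = 0.859), and doxycycline in Non mice changed Csf1 by −0.0057 (95% confidence interval −0.274 to 0.262, adjusted p = 1).

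The bases in front of the Csf1 start are shown because Csf1 and Irf8 were the members with a RefSeq promoter to set beside their values. The table of RefSeq promoters (GRCm38.p6) holds 1 start for Csf1 and 2 for Irf8. Capitals mark a match to the NF-kB consensus, read on the opposite strand, in the 250 bases before the Csf1 start (chr3:107760470-107760719, minus strand), from base −154 to base −145.
Csf1: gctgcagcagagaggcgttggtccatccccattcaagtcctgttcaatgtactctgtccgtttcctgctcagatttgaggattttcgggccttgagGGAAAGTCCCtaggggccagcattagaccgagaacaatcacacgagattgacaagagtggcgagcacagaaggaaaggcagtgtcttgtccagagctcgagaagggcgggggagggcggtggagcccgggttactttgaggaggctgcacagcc
NF-kB carries inflammatory signals to the genome in many cell types. Both strands of the same window of every promoter in the table were searched, and 3.9% of 32851 held a match to the consensus, while 0.14% held the exact bases in capitals. The core that PU.1 binds, GAGGAA, was in 23.3% of promoters and not in the Csf1 window. The exact bases are a form of the consensus, so their share could only be lower and says nothing of this match. A match of letters is not a measured site.

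No change of Il34, the neuronal ligand, was called. Its arrays were at 8.34, 8.38 and 8.44 in Non + Veh, at 8.34 and 8.51 in Non + Dox, at 8.46, 8.27 and 8.39 in Tg + Veh and at 8.29, 8.45 and 8.46 in Tg + Dox. Every pair of groups overlapped. Tg + Veh differed from Non + Veh by −0.013 (95% confidence interval −0.173 to 0.147, adjusted p = 0.966), an interval that excludes a change of the size measured in Csf1. Tg + Dox differed from Tg + Veh by 0.025 (95% confidence interval −0.135 to 0.185, adjusted p = 0.890), and the difference by doxycycline in Non mice was 0.037 (95% confidence interval −0.142 to 0.216, adjusted p = 0.922). The whole 11-array range of Il34, 8.27 to 8.51, was narrower than the gap between the Csf1 means of Tg + Veh and Non + Veh.

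Irf8 was low on every array. It lay at 5.34, 5.28 and 5.33 in Non + Veh and at 5.77, 5.61 and 5.51 in Tg + Veh, with all Tg + Veh arrays higher, by 0.32 on average. Replicate 4 of Tg + Veh was at 5.35, just above the Non + Veh range. The Tg + Dox arrays were at 5.14, 5.31 and 5.53, which spans the Non + Veh range and reaches into that of Tg + Veh, 0.31 below the latter on average. The Non + Dox arrays were at 5.07 and 5.26, both below every Non + Veh array, by 0.15 on average. When the filter on low values was dropped, so that 30184 genes and the Spi1 row were tested together, Irf8 in Tg + Veh over Non + Veh had an adjusted p of 0.336 and was not called.

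The 250 bases before the first Irf8 start (chr8:120736108-120736357, plus strand) are shown with capitals at TTCNNNGAA, the palindromic element of STAT factors, which carry the interferon-gamma signal that induces Irf8. It occurred 2 times, from base −171 to −163 and from base −153 to −145.
Irf8: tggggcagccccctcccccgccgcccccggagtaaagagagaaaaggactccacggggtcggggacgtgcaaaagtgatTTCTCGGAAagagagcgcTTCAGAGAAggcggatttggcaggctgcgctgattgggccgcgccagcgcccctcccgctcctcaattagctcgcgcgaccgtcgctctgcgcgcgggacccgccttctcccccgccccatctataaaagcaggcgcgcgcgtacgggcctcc
This motif was in 7.02% of all promoters. It was in neither the second Irf8 window nor that of Csf1, and neither Irf8 window held GAGGAA or a match to the NF-kB consensus. All 3 motifs were chosen with these windows in view.

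The Spi1 row resembled Irf8 in its low level and in its higher values in Tg + Veh, but less so on doxycycline. Its values were 5.52, 5.58 and 5.63 in Non + Veh and 6.19, 6.02 and 5.91 in Tg + Veh, so that all Tg + Veh arrays were higher, by 0.46 on average. In Tg + Dox it was at 5.56, 5.68 and 6.04, and Tg + Dox 3 lay within the Tg + Veh range, above Tg + Veh 2 and 3. Tg + Dox was 0.28 below Tg + Veh and 0.38 above Non + Dox, whose arrays, at 5.16 and 5.61, were far apart. Tg + Dox over Non + Veh was 0.19 in the Spi1 row and 0.0099 in Irf8. Without the filter the adjusted p of the Spi1 row in Tg + Veh over Non + Veh was 0.320 (limma). The log2 changes of rows this low are not set against that of Csf1r.

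Across the whole table, the 3 tested members gave 2 calls in Tg + Veh over Non + Veh, both upward, and none in the other comparisons. The table set the scale for this. In Tg + Veh over Non + Veh, 1.86% of genes were called higher and 0.135% lower. In Tg + Dox over Tg + Veh, 0.0796% of genes were called higher and 0.613% lower, and 2 of the 3 members were at an unadjusted p under 0.05, as were 2016 of all genes tested (16%). Of Tg + Dox over Non + Dox, Non + Dox over Non + Veh and the genotype by feed interaction, limma called 0% each, while 756, 1328 and 1034 genes were at an unadjusted p under 0.05. In Tg + Dox over Non + Veh it was 0.00796%, or 1 gene. Tg over Non on both feeds together called 0.812%. There Csf1r was higher by 0.97 (adjusted p = 0.0556) and Csf1 by 0.37 (adjusted p = 0.0757), and neither was called. Without both Non arrays that had low Esyt2 these were 1.16 (adjusted p = 0.0976) and 0.34 (adjusted p = 0.234). The interaction, which asks whether doxycycline moved a gene differently in Tg and Non mice, was −0.87 for Csf1r (95% confidence interval −1.70 to −0.0413, adjusted p = 0.604) and −0.31 for Csf1 (adjusted p = 0.664). A different response to doxycycline in the 2 genotypes was therefore not shown. Comparisons that use the same Tg + Veh or Non + Veh arrays are not independent of each other.

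**Figure D2:**
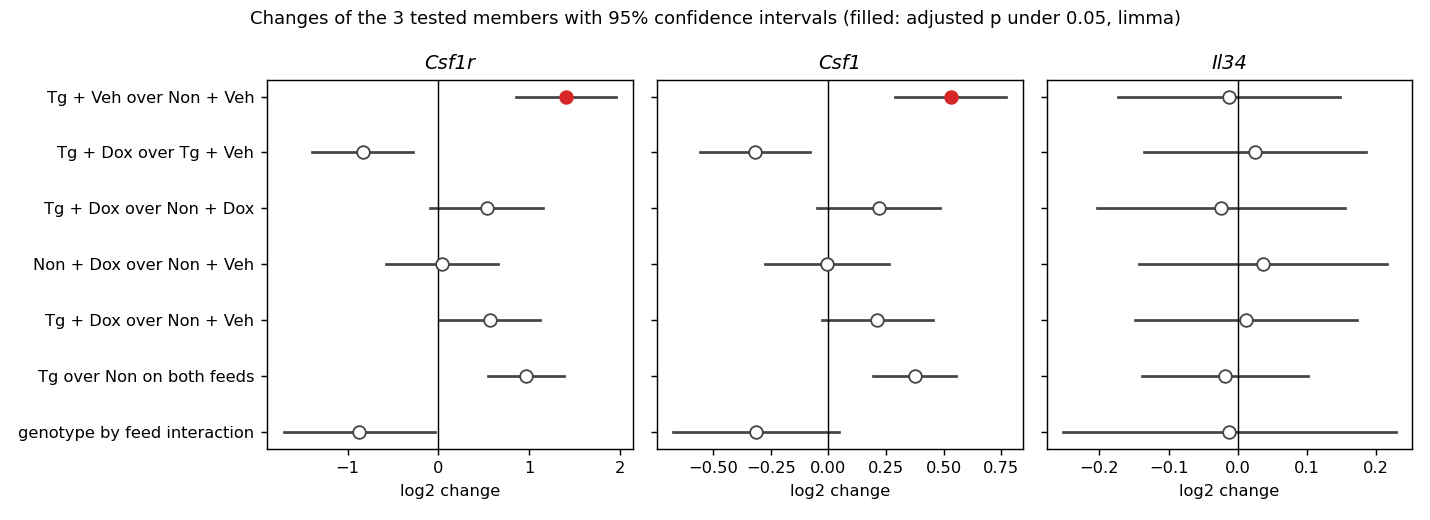
Log2 change of Csf1r, Csf1 and Il34 in 7 comparisons, with 95% confidence intervals from limma over 11 arrays. Filled points are at an adjusted p under 0.05: Csf1r (1.40) and Csf1 (0.53) in Tg + Veh over Non + Veh. Every interval of Il34 spans 0, and the horizontal scales differ between panels.

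Lack of overlap between arrays was frequent in the table. Of the genes tested, 13.5% had all Tg + Veh arrays above all Non + Veh arrays, as did 2 of the 3 tested members (Csf1r and Csf1). Irf8 and the Spi1 row, below the filter, had the same, but the share among rows that low was not counted. All Tg + Dox arrays were below all Tg + Veh arrays in 11.7% of genes, Csf1r and Csf1 among them but not Irf8 or the Spi1 row. Tg + Dox lay wholly above Non + Dox in 6.32% and above Non + Veh in 7.24%, and Csf1r and Csf1 were in both sets.

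By the test of the study's methods, a linear model of genotype, feed and their interaction per gene at a threshold of 0.01, 8.09% of genes passed on some term and 3.77% on genotype. Csf1r and Csf1 passed on genotype, with no adjustment for the number of genes, and Il34 did not. Without Non + Dox 1 neither passed, without Non + Dox 2 only 1 did, and with all 12 arrays neither did. The 4 group means of Csf1r and Csf1 correlated best with the template in which Tg + Veh alone is high, at an r of 0.918 and 0.916, above the limit of 0.85 that the methods set. With the template in which Tg + Dox is as high as Tg + Veh the r was 0.853 and 0.857, so both templates passed the limit. Irf8 followed the first template at an r of 0.93, and the Spi1 row the second at 0.870. Il34, with no change called, also passed the limit, at 0.876 with the template in which Non + Dox alone is high. A correlation over 4 means is a description.

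Csf1r was read beside markers of microglia, of which 14 of 15 listed had a row and 10 were tested. All 14 were higher in Tg + Veh than in Non + Veh, with a median log2 change of 0.48 against 0.021 over all genes tested. Of the 10 tested 4 were called higher, against 1.86% of all genes tested. C1qa, a complement subunit, rose by 1.48 (adjusted p = 0.0138) and Siglech by 0.47 (adjusted p = 0.0405). Trem2, a lipid-sensing receptor, and Ptprc, which encodes CD45, were called as well (adjusted p = 0.00737 and 0.00901), but both lay below the minimum on every Non and Tg + Dox array and entered the test only through Tg + Veh, the group in which they were high. Their group means were 5.60 in Non + Veh and 6.82 in Tg + Veh for Trem2 and 5.61 and 6.78 for Ptprc. Of the 8 markers whose mean over the 11 arrays was above the minimum, all were higher, with a median of 0.52, and 2 were called. Cd68, a lysosomal protein, was 2.43 higher without passing the test (adjusted p = 0.0551), and Aif1, which encodes Iba1, was 0.15 higher (adjusted p = 0.312). In Tg + Dox over Tg + Veh 13 of the 14 were lower, with a median of −0.26. Of the 10 tested, none was called by limma and 6 were at an unadjusted p under 0.05, against 16% of all genes tested.

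The mean log2 level of the 10 tested markers was 7.05 to 7.24 on Non + Veh arrays, 7.01 to 7.21 on Non + Dox, 7.87 to 8.40 on Tg + Veh and 7.28 to 7.65 on Tg + Dox. Csf1r minus this mean, a log2 ratio in which only its shift between groups has a meaning, was 1.73 to 1.95 in Non + Veh, 1.71 to 2.03 in Non + Dox, 2.19 to 2.45 in Tg + Veh and 1.97 to 2.20 in Tg + Dox. The range of the 3 Tg + Veh arrays used was clear of both Non ranges and overlapped that of Tg + Dox, while Tg + Veh 4, at 1.93, lay inside both Non ranges. Against the mean of the 8 markers above the minimum on average, Csf1r was at 1.35 to 1.56 in Non + Veh, 1.36 to 1.66 in Non + Dox, 1.85 to 2.12 in Tg + Veh and 1.61 to 1.86 in Tg + Dox. Tg + Veh 4 was then at 1.59, inside the Non + Dox range. Csf1 minus the mean of the 10 markers went from a mean of −0.44 in Non + Veh to −0.82 in Tg + Veh, with ranges that overlapped. Against all 14 markers it went from −0.078 to −0.25. Il34 minus the mean of the 10 went from 1.25 to 0.32. Whether more microglia, or more transcript in each, stood behind these levels was not tested.

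Within a group, the members shared the order of the arrays in part. In Tg + Dox all 5 rows were highest on replicate 3 and lowest on replicate 1, and so was the marker mean. In Tg + Veh, Csf1r, Csf1, Irf8 and the Spi1 row ranked replicate 1 first, 2 second and 3 last, while Il34 and the marker mean put replicate 2 last. In Non + Veh, Il34 and the Spi1 row followed the order of Csf1r. In Non + Dox, where 2 arrays allow only 2 orders, Il34, Irf8 and the Spi1 row did. The share of all genes in these orders was not counted. Csf1 ran in the reverse order of Csf1r in both Non groups. Over the 11 arrays Csf1r and the Spi1 row had a Pearson r of 0.922 (Spearman 0.909), Csf1r and Irf8 0.903 (0.745), Csf1r and Csf1 0.875 (0.855), and Csf1r and Il34 0.202 (0.236). These values describe arrays that fall into 4 groups and share their group differences.

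**Figure D3:**
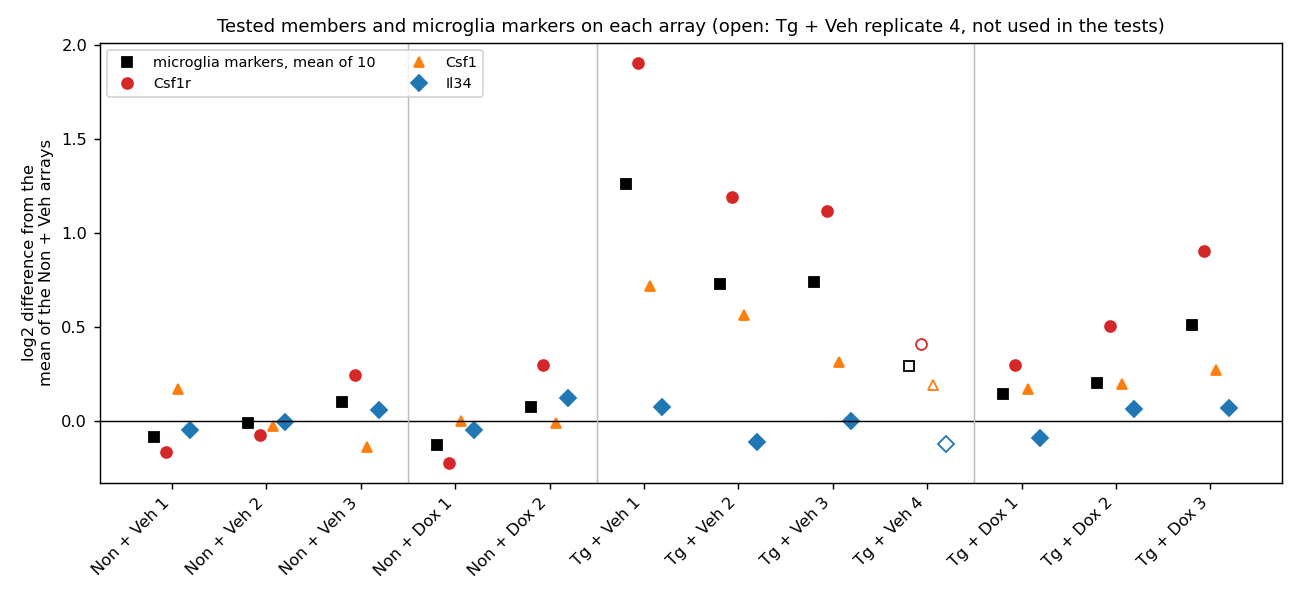
Difference in log2 intensity from the mean of the 3 Non + Veh arrays, for the 3 tested members and for the mean of the 10 tested microglia markers, on all 12 arrays. Csf1r lies above the marker mean on every Tg array, Csf1 lies below it on every Tg + Veh array, and Il34 stays near 0 throughout. The 10 include Trem2 and Ptprc, which were above the minimum on Tg + Veh arrays alone. Csf1 minus the mean of all 14 markers was −0.078 on average in Non + Veh and −0.352 to −0.056 in Tg + Veh. Against those 14, Csf1 was thus not below on every Tg + Veh array. Open points are Tg + Veh replicate 4.

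Among partners that carry the signal of Csf1r inside the cell, the adaptor Tyrobp rose. Of 20 listed genes, 17 had a row and 10 were tested. In Tg + Veh over Non + Veh 1 of these rose, against 1.86% of all genes tested, and none fell, with a median change of 0.13. Tyrobp encodes DAP12, an adaptor that Csf1r and Trem2 share, and had group means of 6.50 in Non + Veh, 6.38 in Non + Dox, 8.43 in Tg + Veh and 7.07 in Tg + Dox. It passed the filter through Tg arrays alone. Its rise was 1.93 (standard error 0.363, adjusted p = 0.0326), and the change of Tg + Dox over Tg + Veh was −1.36 (adjusted p = 0.129). Inpp5d, a lipid phosphatase of blood cells and microglia that restrains the PI3K branch, was above the minimum on 1 Tg + Veh array and on no other. Its means were 6.03 in Non + Veh and 6.74 in Tg + Veh (adjusted p = 0.0504). Cbl, a ubiquitin ligase that takes activated receptors down, was 0.48 higher (adjusted p = 0.437), Pik3r1, the regulatory subunit of PI3K, was 0.32 higher (adjusted p = 0.173), and Src, Fyn, Sos1, Akt1, Grb2 and Gab2 differed by −0.0058 to 0.15. In Tg + Dox over Tg + Veh none of the 10 was called by limma, with 3 at an unadjusted p under 0.05, against 16% of all genes tested.

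Among receptors related to Csf1r by ligand or family, 8 of 11 had a row and 4 were tested. Csf3r, the receptor of granulocyte colony-stimulating factor, rose by 1.26 between Non + Veh and Tg + Veh (standard error 0.209, adjusted p = 0.0212), and its row was above the minimum on Tg arrays alone. It was 0.94 lower in Tg + Dox than in Tg + Veh (adjusted p = 0.0855). Ptprz1, a phosphatase of astrocytes and precursor cells that is a second receptor of Il34, rose by 0.37 with an adjusted p of 0.0499, at the threshold. Kit and Pdgfrb, receptor kinases of the same family as Csf1r, differed by 0.13 and −0.017 (adjusted p = 0.669 and 0.981). The median of the 4 was 0.25. None of them was called in Tg + Dox over Tg + Veh by limma, with 1 at an unadjusted p under 0.05, against 16% of all genes tested.

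Of the other myeloid transcription factors, 23 of 24 had a row but only 9 passed the filter, and none was called in Tg + Veh over Non + Veh by limma (4 at an unadjusted p under 0.05, against 13.6% of all genes tested). Their median change was 0.15. The largest differences were those of Klf2, −0.33 (standard error 0.135, adjusted p = 0.321), and Sall1, a factor of microglial identity, 0.30 (adjusted p = 0.257). Fli1, an ETS factor like PU.1, differed by 0.29 (adjusted p = 0.123). None was called in Tg + Dox over Tg + Veh either, with 4 at an unadjusted p under 0.05 against 16% of all genes tested, and Mitf had the lowest adjusted p (−0.23, adjusted p = 0.0926). Several of the 9, such as Mef2a and Mef2c, are also factors of neurons.

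**Figure D4:**
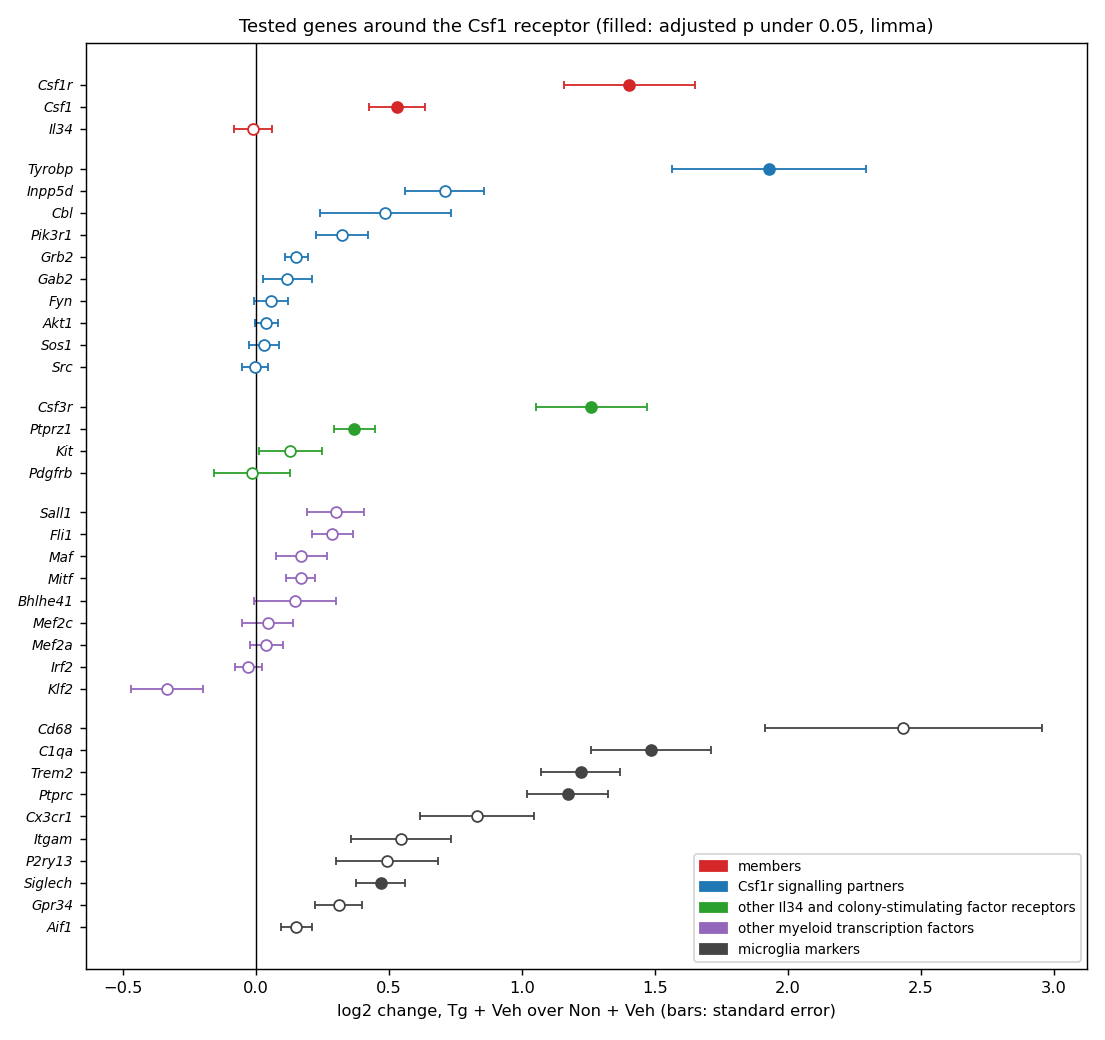
Log2 change in Tg + Veh over Non + Veh, with its standard error, of the tested members and of the tested genes of 4 lists. Filled points are at an adjusted p under 0.05. Trem2, Ptprc, Inpp5d, Tyrobp and Csf3r were above the minimum on Tg arrays alone. Among the signalling partners only Tyrobp (1.93) is filled, and among the other transcription factors none is.

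Other glial markers rose in the same arrays. Of 7 tested astrocyte markers 5 rose in Tg + Veh over Non + Veh, and of 7 tested oligodendrocyte markers 5 rose, against 1.86% of all genes tested. In Tg + Dox over Tg + Veh, 1 of the former and 3 of the latter fell, against 0.613% of all genes tested. Of the markers of border macrophages (1 tested, Mrc1, above the minimum on 1 Tg + Veh array alone, which differed by 0.16), monocytes and neutrophils (1 tested, Ly6c2, 0.024), oligodendrocyte precursors (2), excitatory neurons (7), inhibitory neurons (6), endothelial and mural cells (6) and choroid plexus (3), none was called in either comparison by limma, and lymphocyte markers all lay below the filter. At an unadjusted p under 0.05 in Tg + Veh over Non + Veh were 1 precursor, 1 excitatory and 2 inhibitory neuron markers, and none of the others. Over all genes tested that share was 13.6%. In Tg + Dox over Tg + Veh the markers at such a p were 1 precursor, 2 excitatory neuron and 2 choroid plexus markers, against 16% of all genes tested. Among the latter 2, Clic6 was above the minimum on 2 Tg + Veh arrays and on no other, so it entered the test only through the group in which it was high. The mean of the 7 astrocyte markers was 10.16 to 10.44 on Non + Veh and 11.26 to 11.59 on Tg + Veh arrays, and that of the oligodendrocyte markers 10.23 to 10.36 and 10.71 to 10.81. Csf1 is made by these glia as well as by microglia, and the part of each in its level was not tested.

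The genes most like Csf1r over the 11 arrays were Nckap1l, a regulator of actin in blood cells (r = 0.988, Spearman 0.945), Inpp5d (0.987, 0.918), Stat3, a transcription factor of cytokine signalling (0.985, 0.955), Anxa3, an annexin (0.985, 0.964), and Fcgr3, a low-affinity Fc receptor (0.984, 0.991). Those most like Csf1 were Cd300ld2 (0.984, 0.989), Rin2, Foxn3, Cd81 and Npc1, at an r of 0.945 or more. Irf8 was closest to Heatr5a (0.972, 0.927), Tmem176b, Tgfbr2, Mt1 and Rhoc, and the Spi1 row to Gjb6, a connexin of astrocytes (0.963, 0.882), Slc29a3, Prodh, Tcn2 and Pnpla7. Il34 had looser neighbours, led by Dgcr2 (0.845, 0.739), followed by Zswim1, Kcnc4, Gm10169 and AU040320. The likeness is that of Pearson's r across 11 arrays in 4 groups and says nothing of a shared function.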

How the data were processed

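The authors hybridised total RNA of each cortex to a Clariom D array, computed signals with RMA, and deposited them as log2 intensities per transcript cluster, annotated with NetAffx release 36. RMA normalises between arrays, so a value is relative to the other arrays and not an absolute level. The genome build of the annotation is not given in the sources used here. All 12 value columns matched a sample label, 0 did not, and the design text calls the arrays biological replicates. Of the rows with 1 symbol (30646), the row with the highest mean stood for its gene. The 12566 genes that passed the study's minimum, a log2 intensity of about 6.8, on 1 or more of the 11 arrays were fitted in 1 model of 4 groups with limma 3.58.1 in R 4.3.3, with Benjamini-Hochberg adjustment over all of them and a call at an adjusted p under 0.05. The script was tested on simulated data.

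The members and the 16 gene lists were chosen with earlier results of these data known, so no list result is independent evidence. The text names every member and, of each pathway list, the genes called (at most 6) or, with none called, the 2 with the largest change. Cell type marker lists are given by the number called and, for glia, the mean level, and of them the called microglia markers are named. Other listed genes it names (Inpp5d, Cbl, Gab2, Pik3r1, Mrc1, Ly6c2, Clic6, Src, Fyn, Sos1, Akt1, Grb2, Kit, Pdgfrb, Cd68, Aif1, Fli1, Mitf, Mef2a and Mef2c) and the 3 promoter motifs were picked with their values or letters seen. NF-kB was first searched as 1 exact sequence and then, with its Csf1 match known, as the wider consensus. A composite element of PU.1 and Irf factors, searched at first without a match in the Csf1 or Irf8 windows, was left out. Promoter sequences are RefSeq's, on GRCm38.p6. Of the 5 members, 2 had an entry. Alternatives were all 12 arrays, no filter, the mean row per symbol, median centring, a replicate block, a term for sex, an intensity trend, only the groups compared, no Non arrays with low Esyt2, and each array left out. Keeping the Spi1 row without the filter, and giving microglia markers also over all 14 rows and over the 8 whose mean was above the minimum, were added after seeing the data.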

Additional observations from a re-analysis of the deposited data

Results flagged for a closer look

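Tg + Veh replicate 4, which the study left out after quality control and which enters no test above, lay above every Non + Veh array in 4 of the 5 rows, namely Csf1r (log2 intensity 9.36), Csf1 (6.89), Irf8 (5.35) and the Spi1 row (5.68). In each of the 4 it lay below every other Tg + Veh array. Its margin over the highest Non + Veh array was small in Csf1 (6.89 against 6.87) and in Irf8 (5.35 against 5.34). How many of all genes tested had this array above every Non + Veh array was not counted. In Il34, at 8.26, it was below all 3 Non + Veh arrays. In Csf1r it fell within the Tg + Dox range of 9.25 to 9.85. Its mean over 10 microglia markers, 7.43, also lay between the Non + Veh range (7.05 to 7.24) and the other Tg + Veh arrays (7.87 to 8.40). With it the log2 change of Csf1r in Tg + Veh over Non + Veh was 1.16 (adjusted p = 0.171, limma) in place of 1.40. The part of RNA quality in this was not tested. No single array of the 4 in Tg + Veh stood far enough from the rest in any of the 5 rows to pass Dixon's limit at 95%.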

How the results depend on the processing

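The rise of Csf1r in Tg + Veh over Non + Veh kept its direction in all 20 alternatives (log2 change 1.15 to 1.55, adjusted p = 0.0254 to 0.171, limma) and its call in 10, and that of Csf1 kept its direction in 20 (0.44 to 0.64, adjusted p = 0.0168 to 0.182) and its call in 3. The cause of these losses was not tested beyond what the settings themselves change. Several settings alter only the spread, the adjustment or arrays outside this comparison. In those the changes stayed at 1.40 and 0.53, and the direction could not turn. Values below are log2 changes, or counts called, in order Csf1r, Csf1, members and genes for that comparison. With all 12 arrays they were 1.16, 0.45, 0 and 1. With no filter, where more genes are adjusted for, they were 1.40, 0.53, 0 and 148 (1.40 and 0.53, uncalled, with the Spi1 row kept too). With only the groups compared they were 1.40, 0.53, 0 and 49, and without both Non arrays with low Esyt2 1.52, 0.46, 0 and 125. With sex as a term Csf1r was 1.41, Csf1 0.50 and no member (0) was called, and with median centring Csf1 was 0.49 and 1 member was called.

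Whether replicate numbers pair the samples could not be settled. Of 15 same-numbered pairs of deviations from the group means, 4 had an r above 0.1 (−0.304 to 0.407). Deviations within groups this small are tied to each other, so these pairs are not independent. With the replicate block, Csf1r (1.40, adjusted p = 0.0743) and Csf1 (0.53, adjusted p = 0.0603) lost their calls, 0 members were called, and genes called were 122 in Tg + Veh over Non + Veh, 11 in Tg + Dox over Tg + Veh, 0 in Tg + Dox over Non + Veh and 7 in Tg over Non on both feeds.

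Leaving out 1 array at a time gave 64 to 248 genes and 0 to 2 members called in Tg + Veh over Non + Veh, with Csf1r at 1.15 to 1.55 and Csf1 at 0.44 to 0.64. It gave 3 to 176 genes in Tg + Dox over Tg + Veh, 0 to 3 in Tg + Dox over Non + Dox, 0 to 3 in Non + Dox over Non + Veh, 0 to 2 in Tg + Dox over Non + Veh, 5 to 140 genes and 0 to 1 members in Tg over Non on both feeds (Csf1 at 0.33 to 0.43), and 0 to 12 in the interaction. The methods' two-way test then passed 0 to 2 members, and 0 with all 12 arrays. Doxycycline in Non mice then moved Csf1r by −0.22 to 0.30 and Csf1 by −0.0769 to 0.0781.

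In the other comparisons, genes called were as follows. Tg + Dox over Tg + Veh had 0 with all 12 arrays, 8 with no filter, 34 with sex, 3 without both Non arrays and 1 with only the groups compared. Tg + Dox over Non + Dox had 5 without both Non arrays and 1 with only its groups, and Non + Dox over Non + Veh 1 and 1. Tg + Dox over Non + Veh had 0 with no filter, 0 with sex, 9 without both Non arrays and 0 with only its groups. Tg over Non on both feeds had 1 with all 12 arrays, 45 with no filter, 40 with sex and 28 without both Non arrays, where the interaction had 1.

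Signs turned only in changes that were near 0 over the 11 arrays and never called. With 1 array left out, the largest turned values in Non + Dox over Non + Veh were −0.22 for Csf1r and 0.078 for Csf1. Without both Non arrays Csf1r in Non + Dox over Non + Veh was −0.10, and Il34 was 0.0154 in Tg + Veh over Non + Veh, 0.0610 in Tg + Dox over Non + Dox, −0.0205 in Non + Dox over Non + Veh, 0.0382 in Tg over Non and 0.0456 in the interaction. Il34 was also 0.00790 with sex in Tg + Veh over Non + Veh, and in the interaction 0.0164 with all 12 arrays and 0.0288 with median centring. With 1 array left out, Il34 ranged from −0.0561 to 0.0372 in Tg + Veh over Non + Veh, −0.0250 to 0.0780 in Tg + Dox over Tg + Veh, −0.11 to 0.0610 in Tg + Dox over Non + Dox, −0.0488 to 0.12 in Non + Dox over Non + Veh, −0.0160 to 0.0651 in Tg + Dox over Non + Veh, −0.0618 to 0.0241 in Tg over Non and −0.0978 to 0.0739 in the interaction.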
